A study of Mus musculus with 10 samples.

Results

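Uroplakins were examined in RNA-seq of mouse prostate cancer organoids whose EZH2, the Polycomb enzyme that methylates histone H3, was targeted by a drug or by an inducible Cre. The 5 genes UPK1A, UPK1B, UPK2, UPK3A and UPK3B were taken by symbol from both deposited tables, which had 24016 symbols in common, and all 5 were found. The series comprised 10 libraries in 2 experiments, each with its own vehicle. In the chemical experiment, 3 libraries came from organoids given 1 µM DZNep and 3 from organoids given DMSO. In the genetic experiment, 2 libraries came from organoids given 1 µM Tamoxifen and 2 from organoids given ethanol (EtOH). RNA was taken after 3 days.

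Both experiments, vehicles included, used organoids (3-dimensional cultures) of the dorsal-lateral prostate lobe, taken from C57BL/6 mice aged 8 weeks. All of them overexpressed cMYC, carried floxed EZH2 alleles and an inducible PSA-CreERT2, and grew in 10 nM R1881, a synthetic androgen. DZNep blocks S-adenosylhomocysteine hydrolase and so acts on methylation in general, and the series used it as an EZH2 inhibitor. Tamoxifen activates CreERT2, and the PSA promoter limits the enzyme to cells in which that promoter is active. Whether libraries of a group came from separate cultures or animals is not in the labels. The p-values below therefore reflect how these libraries varied, which may be technical variation only.

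Uroplakins are membrane proteins best known from the urothelium, the lining of the bladder, where they form the rigid plaques of the apical surface that hold water and solutes back. UPK1A and UPK1B are tetraspanins. Each leaves the endoplasmic reticulum bound to a partner with a single membrane span: UPK1A binds UPK2, and UPK1B binds UPK3A or UPK3B. The UPK2 precursor is cut by furin on its way to the surface, and UPK3B is also known from mesothelium, the lining of body cavities.

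Levels were given as RPKM, reads per kilobase of gene scaled to library size, a scale set per gene length, so levels of different genes can be compared. UPK1B was the most abundant uroplakin in every library. Its mean level was 57.3 RPKM over the 6 libraries of the chemical experiment and 54.4 RPKM over the 4 of the genetic experiment, above 94.7% and 94.2% of all genes listed in those tables. UPK3A followed in the chemical experiment, at a mean of 17.5 RPKM, above 82.4% of genes. That mean joins unlike groups, at 25.7 RPKM with DZNep and 9.32 RPKM with DMSO. UPK1A averaged 7.70 RPKM in the chemical experiment (above 70.0% of genes) and UPK2 averaged 3.06 RPKM (above 60.0%). In the genetic experiment UPK3A averaged 7.69 RPKM (above 69.8%), UPK1A 7.34 RPKM (above 69.2%) and UPK2 2.49 RPKM (above 58.4%). UPK3B was close to 0, with a mean of 0.0317 RPKM in the chemical and 0.0170 RPKM in the genetic experiment.

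The order UPK1B, UPK3A, UPK1A, UPK2, UPK3B held in all 3 DZNep, all 3 DMSO and both EtOH libraries. In both Tamoxifen libraries UPK1A and UPK3A had changed places. The gap between UPK3A and UPK1A was narrow in EtOH 1, at 8.24 and 7.97 RPKM. No other neighbours in the order came as close. The summed level of the 5 genes was 96.3 to 102 RPKM with DZNep, against 71.4 to 74.1 RPKM with DMSO. It was 65.5 to 67.9 RPKM with Tamoxifen, against 74.0 to 80.2 RPKM with EtOH. In bulk organoid RNA, more cells that express a gene and more RNA per cell cannot be told apart.

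**Figure D1:**
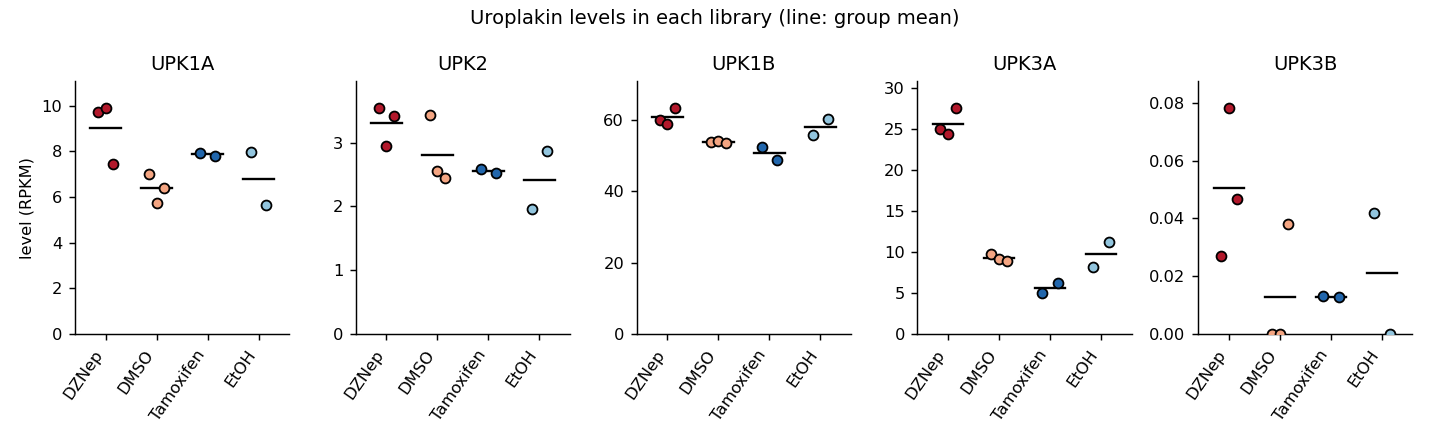
Level of each uroplakin in RPKM (linear axes from 0, a separate axis for each gene) in every DZNep, DMSO, Tamoxifen and EtOH library, with a line at the group mean. UPK3A stands at 24.4 to 27.6 RPKM in the 3 DZNep libraries and at 8.98 to 9.80 RPKM in the 3 DMSO libraries, while UPK3B stays below 0.08 RPKM throughout.

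The depth behind these values could be read from the tables. For all 5 uroplakins in all 10 libraries, the values were whole multiples of what 1 read (or 1 sequenced fragment) was worth, within a tolerance of 0.05 reads. UPK1B rested on 2577 to 3947 reads per library, UPK3A on 186 to 915, UPK1A on 237 to 426 and UPK2 on 51 to 96. UPK3B rested on 0 to 4 reads per library. DZNep 2 was the shallowest library, at 0.755 of the depth of DMSO 1, and DMSO 3 the deepest, at 1.16. Over all genes that averaged 1 RPKM or more the same steps gave whole reads for 60.8%, so no count model was used.

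Promoter sequence was given by RefSeq (GRCm38.p6, 250 bases before to 50 after the start of the gene) for 3 of the 5 members. It is shown for all 3, whatever their response. The windows are chr15:85016891-85017190 on the plus strand (UPK3A), chr7:30612685-30612984 on the minus strand (UPK1A) and chr5:136038246-136038545 on the plus strand (UPK3B), written 5′ to 3′ in the direction of the gene. Capitals mark matches to any of 6 short motifs searched on both strands. The letters AGATAA stand for GATA family binding, CACCC for KLF family binding, and GGAAGT for ETS family binding. The letters AGGTCA stand for nuclear receptors, AACCNG for grainyhead-like proteins, and TGTTTAC for forkhead proteins.
UPK3A: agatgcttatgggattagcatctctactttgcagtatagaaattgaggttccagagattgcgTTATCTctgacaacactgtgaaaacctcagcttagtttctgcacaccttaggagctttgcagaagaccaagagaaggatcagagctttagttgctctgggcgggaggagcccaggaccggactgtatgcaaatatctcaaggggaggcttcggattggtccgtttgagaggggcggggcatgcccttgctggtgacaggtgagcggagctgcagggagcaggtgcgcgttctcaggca
UPK1A: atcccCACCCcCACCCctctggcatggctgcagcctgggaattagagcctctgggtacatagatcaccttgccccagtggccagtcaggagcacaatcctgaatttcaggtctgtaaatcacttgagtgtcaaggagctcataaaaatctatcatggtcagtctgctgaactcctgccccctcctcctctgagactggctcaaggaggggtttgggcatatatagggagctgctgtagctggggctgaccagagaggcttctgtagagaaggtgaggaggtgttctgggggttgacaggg
UPK3B: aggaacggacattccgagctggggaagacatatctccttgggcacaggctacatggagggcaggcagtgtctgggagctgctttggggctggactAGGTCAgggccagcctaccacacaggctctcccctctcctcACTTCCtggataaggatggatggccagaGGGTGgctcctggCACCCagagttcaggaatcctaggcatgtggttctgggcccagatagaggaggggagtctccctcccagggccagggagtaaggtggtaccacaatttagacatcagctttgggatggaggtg

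The UPK3A window held 1 AGATAA, on the opposite strand at base -188 from the start, a motif found in 11.2% of all 32851 windows. The UPK1A window held 2 CACCC matches, at bases -245 and -239, a motif found in 57.5% of windows. The UPK3B window held 2 CACCC matches, 1 GGAAGT (23.8% of windows) and 1 AGGTCA (16.3%). AACCNG (39.4% of windows) and TGTTTAC (3.65%) were in none of the 3 windows. The windows also differed in CpG dinucleotides, the sites of DNA methylation. UPK3A had 9, UPK1A had 0 and UPK3B had 2, against a median of 7 over all windows, while their GC contents of 52.3%, 54.7% and 58.7% lay near or above the median of 52.7%. No binding or methylation data were used here, so these are descriptions of sequence only, and the deposited levels were made on another build (mm9). UPK1B and UPK2 were not in the promoter table. In the same annotation UPK3A overlaps the gene model Gm52194, and reads shared by overlapping genes may be uncertain where strand is not used in counting. UPK3B has UPK3BL as its neighbour.

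The first comparison asked what DZNep did to expression. Only the 4 uroplakins that averaged 1 RPKM or more were tested, and 3 of them rose with DZNep and 0 fell. Over all 11143 genes tested, 27.7% passed (limma, adjusted p under 0.05), of which 16.6% of all genes rose and 11.1% fell. UPK3A rose most, and UPK1A and UPK1B rose by less. The median log2 change of the 4 was 0.31, beside 0.01 for all genes tested. Values did not overlap between the groups for UPK3A, UPK1A and UPK1B, which was also the case for 45.5% of all genes tested.

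UPK1A, the tetraspanin that pairs with UPK2, stood at 9.70, 9.89 and 7.45 RPKM in the 3 DZNep libraries, against 7.01, 5.74 and 6.39 RPKM in the 3 DMSO libraries. DZNep 3 was lowest of the treated libraries and only just above DMSO 1. The means were 9.01 ± 1.35 RPKM with DZNep and 6.38 ± 0.634 RPKM with DMSO (SD, n = 3 each), a ratio of 1.41. On the scale of log2(RPKM + 1), which understates changes of low genes, the rise was 0.43 (SE 0.107, 95% interval 0.19 to 0.68, limma adjusted p = 0.0213). The call was lost without DZNep 1 (0.38, adjusted p = 0.0553), DZNep 2 (0.37, 0.0746), DMSO 2 (0.37, 0.0794) or DMSO 3 (0.44, 0.0502).

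UPK1B, the tetraspanin that pairs with UPK3A, stood at 59.9, 58.9 and 63.3 RPKM with DZNep, against 53.8, 54.0 and 53.5 RPKM with DMSO. The DMSO libraries lay very close together and all DZNep libraries lay above them. The rise was small, at 0.17 on the log2 scale (SE 0.0467, 95% interval 0.06 to 0.28, limma adjusted p = 0.0301), with means of 60.7 ± 2.31 RPKM with DZNep and 53.8 ± 0.248 RPKM with DMSO. The call held without DMSO 1 but was lost on leaving out any of the other 5 libraries, with adjusted p of 0.0585 without DZNep 1, 0.0690 without DZNep 2, 0.0634 without DZNep 3, 0.106 without DMSO 2 and 0.0746 without DMSO 3. It was also lost after quantile normalization (0.14, adjusted p = 0.0604).

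UPK3A, the partner of UPK1B with a single membrane span and a cytoplasmic tail, stood at 25.0, 24.4 and 27.6 RPKM with DZNep, against 9.80, 9.17 and 8.98 RPKM with DMSO. The lowest DZNep library was far above the highest DMSO library, and within each group the values were close. The means were 25.7 ± 1.66 RPKM with DZNep and 9.32 ± 0.433 RPKM with DMSO (SD, n = 3 each), a ratio of 2.76. The log2 change was 1.37 (SE 0.0599, 95% interval 1.23 to 1.51, limma adjusted p = 7.53e-06), the 66th largest rise among the 11143 genes tested. It passed under all 15 alternatives, among them each library left out in turn.

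UPK2, the partner of UPK1A, stood at 3.54, 2.94 and 3.42 RPKM with DZNep, against 3.43, 2.55 and 2.45 RPKM with DMSO. The groups overlapped through DMSO 1. The difference of 0.18 on the log2 scale did not pass (95% interval -0.06 to 0.43, limma adjusted p = 0.232), an interval that holds no change as well as a rise close to that of UPK1A. Without DMSO 1 it passed (0.30, adjusted p = 0.0313).

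UPK3B, the alternative partner of UPK1B, was listed at 0.0269, 0.0781 and 0.0468 RPKM with DZNep, against 0, 0 and 0.0383 RPKM with DMSO. These levels were 2, 4 and 3 reads with DZNep and 0, 0 and 3 reads with DMSO. The sums were 9 reads with DZNep (exact 95% Poisson interval 4.12 to 17.1) and 3 reads with DMSO (0.619 to 8.77). Summed depth relative to DMSO 1 was 2.795 with DZNep and 3.185 with DMSO. The intervals cover counting error only, and their overlap is not a test of a difference. UPK3B fell under the filter on low values and was not tested, so these few reads do not settle whether it changed.

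The second comparison asked the same of Tamoxifen. None of the 4 tested uroplakins passed (0 of 4), where 2.07% of 11123 genes passed (limma), 0.692% rising and 1.38% falling. At an unadjusted p under 0.05 there were 2, UPK3A and UPK1B, both lower with Tamoxifen, where 25.5% of all genes tested lay under that p. For these 2 genes the Tamoxifen and EtOH libraries did not overlap, but with 2 libraries a group that was so for 59.9% of all genes tested. The median log2 change of the 4 was -0.06, beside 0.04 for all genes tested.

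UPK3A stood at 4.97 and 6.30 RPKM in the 2 Tamoxifen libraries, against 8.24 and 11.3 RPKM in the 2 EtOH libraries. Both Tamoxifen libraries lay below both EtOH libraries, and the 2 EtOH libraries differed from each other by more than EtOH 1 differed from Tamoxifen 2. The means were 5.64 ± 0.945 RPKM with Tamoxifen and 9.75 ± 2.15 RPKM with EtOH (SD, n = 2 each), a ratio of 0.578. The log2 change of -0.69 (SE 0.163, 95% interval -1.10 to -0.28) had an unadjusted p of 0.00729 and a limma adjusted p of 0.0939. It passed in only 3 of 13 alternatives, among them a joint limma fit of all 10 libraries (-0.69, adjusted p = 0.0117). With no filter it did not pass (limma adjusted p = 0.201). Leaving out 1 library gave changes of -0.89 to -0.48.

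UPK1B stood at 52.4 and 48.9 RPKM with Tamoxifen, against 55.8 and 60.4 RPKM with EtOH. The groups were separate but close, with a log2 change of -0.19 (95% interval -0.37 to -0.02, limma adjusted p = 0.166). UPK1A stood at 7.94 and 7.81 RPKM with Tamoxifen, against 7.97 and 5.64 RPKM with EtOH. Here both Tamoxifen libraries lay between the 2 EtOH libraries (log2 change 0.20, 95% interval -0.16 to 0.56, limma adjusted p = 0.404), and without EtOH 2 the sign turned (-0.02, adjusted p = 0.878).

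UPK2 stood at 2.59 and 2.53 RPKM with Tamoxifen, against 1.96 and 2.87 RPKM with EtOH. Again the Tamoxifen libraries lay inside the EtOH range (log2 change 0.07, 95% interval -0.27 to 0.42, limma adjusted p = 0.755), and without EtOH 1 the sign turned (-0.12, adjusted p = 0.463). UPK3B was listed at 0.0131 and 0.0128 RPKM with Tamoxifen, 1 read each, against 0.0420 and 0 RPKM with EtOH, or 3 reads and 0. The sums were 2 reads (exact 95% Poisson interval 0.242 to 7.22) and 3 reads (0.619 to 8.77), too few to tell whether the groups differed.

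**Figure D2:**
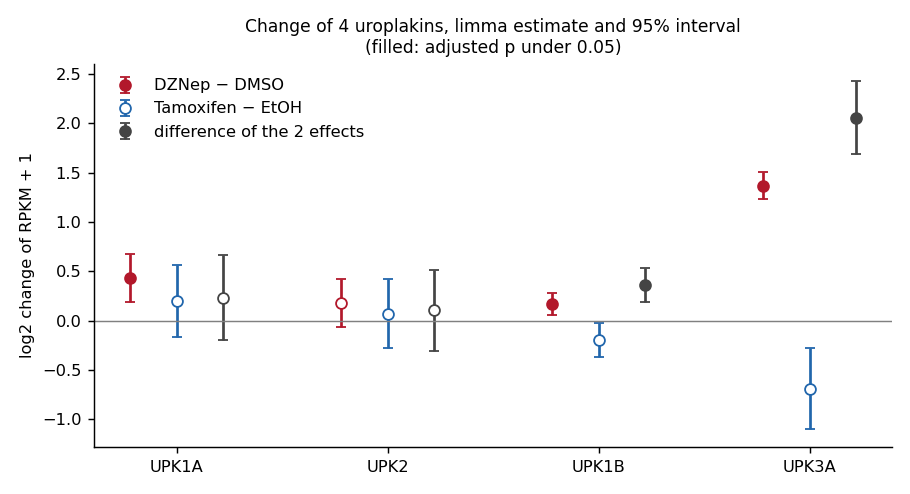
Change on the log2(RPKM + 1) scale of the 4 tested uroplakins, with limma 95% intervals. Shown are DZNep against DMSO (red), Tamoxifen against EtOH (blue) and the difference of these effects (dark grey). Filled points have an adjusted p under 0.05. UPK3A lies at 1.37 with DZNep and at -0.69 with Tamoxifen, with intervals far apart, and its difference of effects lies at 2.06.

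The effects of DZNep and Tamoxifen themselves differed for 2 of the 4 tested uroplakins, where 19.9% of 10994 genes passed that test (limma, contrast of the 2 effects over all 10 libraries). For UPK3A the DZNep effect exceeded the Tamoxifen effect by 2.06 on the log2 scale (SE 0.167, 95% interval 1.69 to 2.43, adjusted p = 8.37e-05), the 20th largest such positive difference, and it passed under all 18 alternatives. For UPK1B the difference was 0.37 (SE 0.0785, 95% interval 0.19 to 0.54, limma adjusted p = 0.0112), and it was lost without Tamoxifen 2 (0.32, adjusted p = 0.0643). For UPK1A it was 0.23 (95% interval -0.20 to 0.66, adjusted p = 0.419) and for UPK2 0.11 (95% interval -0.30 to 0.52, adjusted p = 0.708), so for that pair the data neither show a difference nor exclude one of the size seen for UPK1B. Without EtOH 1 the UPK1A value was 0.017 and without EtOH 2 it was 0.45, and without EtOH 2 the UPK2 value was -0.085.

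**Figure D3:**
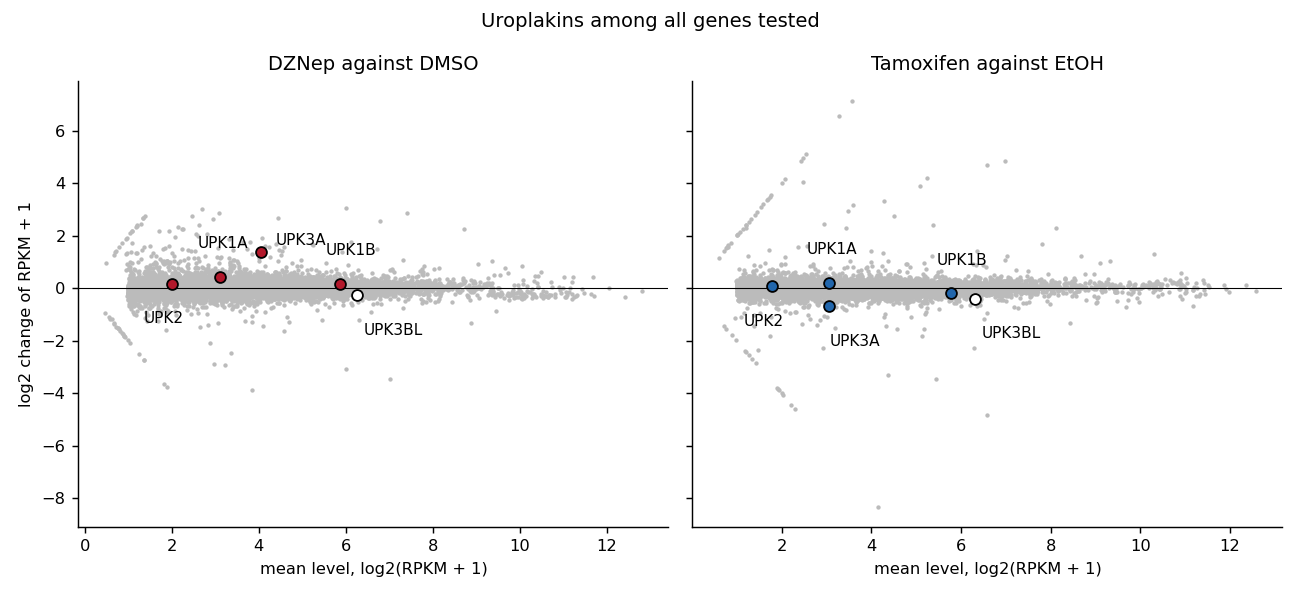
Change on the log2(RPKM + 1) scale against mean log2(RPKM + 1) for every gene tested (grey), DZNep against DMSO on the left and Tamoxifen against EtOH on the right, with the 4 tested uroplakins in colour and UPK3BL in white. UPK3A lies at the upper edge of the cloud with DZNep (1.37) and at its lower edge with Tamoxifen (-0.69), while UPK1B, UPK1A and UPK2 lie closer to 0, at most 0.43 from it.

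Because uroplakins leave the endoplasmic reticulum in pairs, levels of partner transcripts were set against each other within each library. UPK3A was 0.415 to 0.435 of UPK1B in the DZNep libraries, against 0.168 to 0.182 in the DMSO libraries. It was 0.0947 and 0.129 of UPK1B in the Tamoxifen libraries, against 0.148 and 0.187 in the EtOH libraries. UPK1B thus exceeded UPK3A in every library, by the least margin with DZNep. The log2 ratio differed by 1.29 between DZNep and DMSO (exact permutation test over libraries, two-sided p = 0.1, adjusted p = 0.4 over the 4 comparisons of ratios). That is the smallest p that 3 against 3 allow. Between Tamoxifen and EtOH it differed by -0.59 (exact permutation p = 0.333, the smallest that 2 against 2 allow, adjusted p = 0.444).

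For the other pair, UPK1A was 2.177 to 3.36 times UPK2 in the DZNep libraries, against 2.04 to 2.61 times in the DMSO libraries. It was 3.06 and 3.09 times UPK2 in the Tamoxifen libraries, against 4.07 and 1.97 times in the EtOH libraries. These ranges overlap in both experiments, with log2 differences of 0.25 (exact permutation p = 0.3, adjusted p = 0.444) and 0.12 (exact permutation p = 1, adjusted p = 1). UPK3A thereby made up 25.4 to 27.1% of the summed uroplakin level in DZNep libraries, against 12.6 to 13.2% in DMSO libraries. In Tamoxifen libraries it made up 7.31 and 9.62%, against 11.1 and 14.1% in EtOH libraries. UPK1B made up 61.0 to 62.2% with DZNep, against 72.7 to 75.6% with DMSO.

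**Figure D4:**
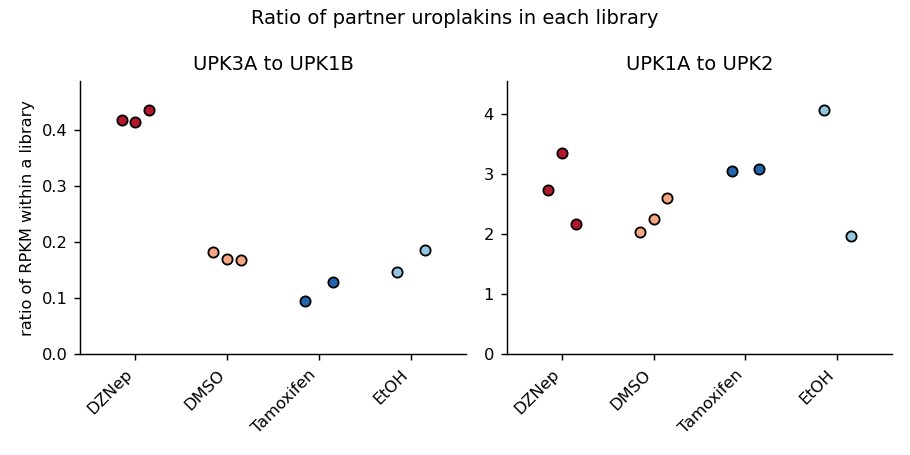
Ratio of RPKM of UPK3A to UPK1B (left) and of UPK1A to UPK2 (right) in each library (linear axes from 0). The UPK3A to UPK1B ratio is 0.415 to 0.435 in DZNep libraries and 0.168 to 0.182 in DMSO libraries, and the UPK1A to UPK2 ratio overlaps between the groups of both experiments.

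UPK3BL, a uroplakin-like gene next to UPK3B that is not among the 5, was far more abundant than UPK3B. It stood at 69.1, 71.4 and 66.3 RPKM with DZNep, against 82.6, 84.0 and 79.3 RPKM with DMSO, and it fell by 0.25 on the log2 scale (SE 0.0498, limma adjusted p = 0.0102). The call was lost without DMSO 2 (adjusted p = 0.0558). With Tamoxifen it stood at 69.4 and 66.8 RPKM, against 84.8 and 94.6 RPKM with EtOH, a log2 change of -0.39 (limma adjusted p = 0.0648). With both treatments all values lay below those of the vehicle, which for UPK3A was so with Tamoxifen only. Groups did not overlap for 45.5% of all genes tested with DZNep and for 59.9% with Tamoxifen. The Tamoxifen change passed in 7 of 13 alternatives, among them quantile normalization (limma adjusted p = 0.0486) and the joint fit (0.00676). With no filter it did not pass (limma adjusted p = 0.14). It passed without either EtOH library but did not without either Tamoxifen library. Leaving out 1 library gave changes of -0.47 to -0.31. The difference of effects was 0.14 (95% interval -0.04 to 0.33, limma adjusted p = 0.254), or 0.22 without EtOH 1 and 0.065 without EtOH 2.

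The tables listed 29 other tetraspanins, of which 20 were tested. With DZNep 2 rose, CD81 (0.29, limma adjusted p = 0.00443) and CD63 (0.19, 0.0205), which are widely expressed and found on endosomes and vesicles, and 1 fell, TSPAN33 (-0.20, 0.0455). Their median change was -0.01. Of 15 alternatives CD81 passed in 15, CD63 in 11 and TSPAN33 in 6. With Tamoxifen 0 rose and 1 fell, TSPAN12, a receptor component of Norrin signalling (-0.41, limma adjusted p = 0.0457), with a median of 0.01. TSPAN12 passed in 9 of 13 alternatives and did not without Tamoxifen 1 (adjusted p = 0.209) or Tamoxifen 2 (0.334). These medians stand beside 0.01 with DZNep and 0.04 with Tamoxifen for all genes tested, of which 27.7% and 2.07% passed.

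Of 9 genes of uroplakin processing and vesicle traffic, 8 were tested with DZNep. Of these 2 rose and 1 fell, where 27.7% of all genes tested passed (16.6% rose and 11.1% fell). SYTL2, an effector of RAB27 in vesicle docking, rose (2.17 ± 0.181 RPKM with DZNep and 1.10 ± 0.0892 RPKM with DMSO; log2 change 0.59, limma adjusted p = 0.00139). VPS33A, of the endosomal fusion machinery, rose by 0.18 (adjusted p = 0.0227), and MYO5B, a motor of recycling vesicles, fell by 0.25 (adjusted p = 0.0443). SYTL2 passed in 14 of 14 alternatives, VPS33A in 10 of 15 and MYO5B in 8 of 15. The median change of the list was 0.10 with DZNep and -0.10 with Tamoxifen, beside 0.01 and 0.04 for all genes tested. FURIN, which cuts the UPK2 precursor, had a log2 change of -0.18 that did not pass (adjusted p = 0.0961), and RAB27B, which carries uroplakin vesicles, one of -0.04 (adjusted p = 0.581). With Tamoxifen 7 were tested and 0 passed (limma), where 2.07% of all genes tested passed. At an unadjusted p under 0.05 there were 2, where 25.5% of all genes tested lay under that p. RAB27B had a log2 change of -0.30 (limma adjusted p = 0.0817) and RAB11A, of recycling endosomes, one of -0.29 (adjusted p = 0.0860).

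All 12 regulators of urothelial differentiation were tested. With DZNep 0 rose and 3 fell: GRHL2, a grainyhead-like factor of epithelial barriers (-0.21, limma adjusted p = 0.0172), RXRA, the nuclear receptor partner of PPARG (-0.28, 0.0197), and GATA3 (-0.30, 0.0274). PPARG itself stood at 9.30 ± 1.57 RPKM with DZNep and 9.08 ± 1.24 RPKM with DMSO, a log2 change of 0.03 that did not pass (adjusted p = 0.893). The median change was -0.04. Of all genes tested 27.7% passed with DZNep (16.6% rose and 11.1% fell) and 2.07% passed with Tamoxifen. The 3 falls were all lost without DZNep 2 and without DMSO 2. With Tamoxifen 1 fell, KLF4, an epithelial differentiation factor, at 48.1 ± 0.952 RPKM with Tamoxifen and 71.7 ± 0.0534 RPKM with EtOH (log2 change -0.57, limma adjusted p = 0.0263), with a median of -0.13 over the list. The KLF4 call was lost on leaving out either Tamoxifen library (adjusted p = 0.132 without Tamoxifen 1 and 0.17 without Tamoxifen 2).

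Other urothelial genes were 7 in number, 4 of them tested. With DZNep 3 rose and 0 fell, with a median of 0.39, where 16.6% of all genes tested rose and 11.1% fell. KRT13, a keratin of stratified epithelia and of urothelium, stood at 175 ± 9.92 RPKM with DZNep and 60.9 ± 3.17 RPKM with DMSO (log2 change 1.51, limma adjusted p = 5.45e-06). PSCA, a surface antigen of prostate and bladder epithelium, rose by 0.51 (896 ± 51.9 RPKM with DZNep and 628 ± 2.75 RPKM with DMSO, adjusted p = 9.90e-04). KRT20, a keratin of umbrella cells, rose by 0.28 (adjusted p = 0.0350), a call that held in 1 of the 6 fits that left out a library.

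With Tamoxifen 0 of these genes rose and 1 fell, with a median of -0.47, where 2.07% of all genes tested passed. KRT13 stood at 20.2 ± 2.48 RPKM with Tamoxifen and 60.4 ± 1.33 RPKM with EtOH (log2 change -1.54, limma adjusted p = 0.0128), a call kept in 12 of 13 alternatives and lost with no filter. PSCA (-0.58, adjusted p = 0.0549) and KRT20 (-0.37, 0.0687) did not pass. KRT7, a simple epithelial keratin, stood at 1376 ± 47.8 RPKM with DZNep and 1345 ± 55.5 RPKM with DMSO, and did not pass in either experiment (adjusted p = 0.702 and 0.784). SHH, CRTAC1 and FABP4 were under the filter.

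**Figure D5:**
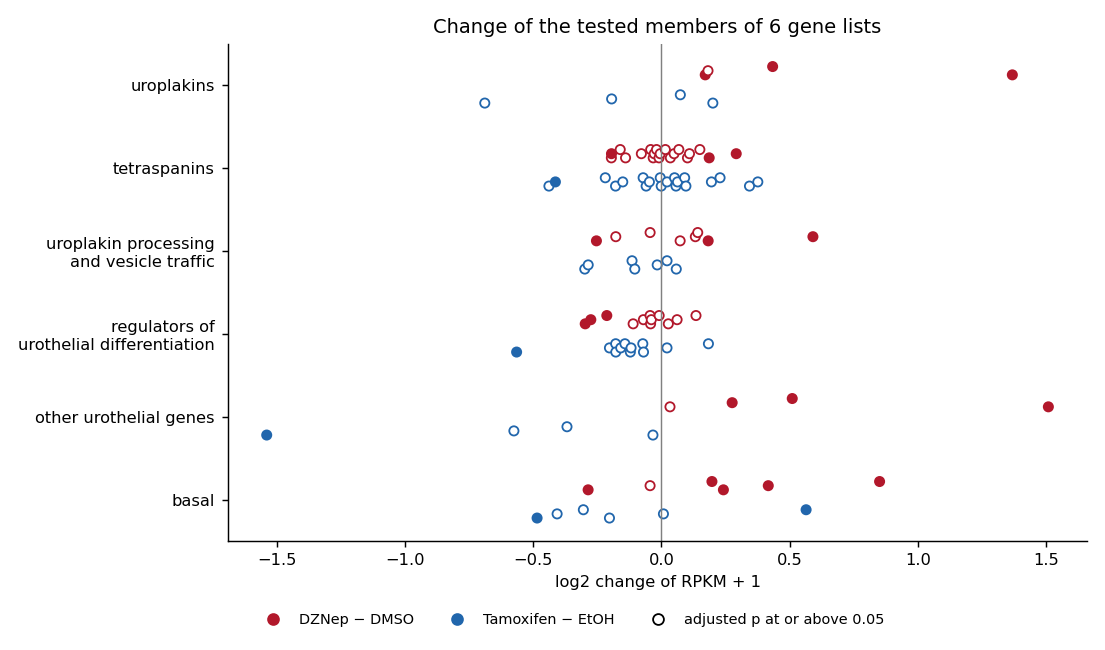
Change on the log2(RPKM + 1) scale of each tested member of 6 gene lists, DZNep against DMSO (red, upper of each pair) and Tamoxifen against EtOH (blue, lower); filled points have a limma adjusted p under 0.05. KRT13 lies furthest out among the other urothelial genes (1.51 and -1.54), and most tetraspanins lie close to 0.

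The label of prostate epithelium was checked against markers. KRT8, KRT18, HOXB13 and TMPRSS2 were present, with TMPRSS2 at 179 ± 4.30 RPKM with DZNep and 175 ± 5.87 RPKM with DMSO, while the secretory genes PBSN and SPINK3 were listed at 0 in all libraries. EZH2 stood at 23.8 ± 1.19 RPKM with DZNep and 29.1 ± 1.78 RPKM with DMSO, a fall of 0.28 on the log2 scale (limma adjusted p = 0.0142), a call lost without DMSO 2 (adjusted p = 0.0641). With Tamoxifen it stood at 32.6 ± 0.822 RPKM, against 31.0 ± 4.25 RPKM with EtOH (adjusted p = 0.635). A level over the whole gene does not show recombination of the floxed part, so these values do not check the deletion.

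Some markers of several cell types changed with the treatments and others did not. Of the 6 basal markers 4 rose with DZNep (KRT14, KRT5, KRT15, NGFR) and 1 fell (ITGA6), where 27.7% of all genes tested passed. TRP63 did not pass (-0.04, limma adjusted p = 0.655). The summed level of the 6 was 6711 to 6984 RPKM with DZNep, against 4955 to 5253 RPKM with DMSO. Nearly all of it was KRT5, KRT14 and KRT15. Only 3 of the 6 passed without DZNep 2, DZNep 3, DMSO 2 or DMSO 3. The sum was 4066 to 4178 RPKM with Tamoxifen, against 5131 to 5529 RPKM with EtOH. With Tamoxifen NGFR rose and KRT14 fell, where 2.07% of all genes tested passed. Both calls were lost without Tamoxifen 1 (adjusted p = 0.0977 for NGFR and 0.243 for KRT14) and without Tamoxifen 2 (0.228 and 0.339). Among luminal markers, KRT8 rose with DZNep (213 ± 14.2 RPKM, against 156 ± 5.49 RPKM with DMSO; log2 change 0.44, limma adjusted p = 0.00231), and FKBP5, a co-chaperone of steroid receptors, fell by 0.25 (adjusted p = 0.0261). The FKBP5 call was lost without DZNep 2 (adjusted p = 0.0778), DZNep 3 (0.0629), DMSO 1 (0.0540) or DMSO 2 (0.0837). HOXB13 rose by 0.20 with DZNep (limma adjusted p = 0.0365). KRT18 did not pass, at 257 ± 11.4 RPKM with DZNep and 257 ± 10.6 RPKM with DMSO. With Tamoxifen KRT8 stood at 165 ± 6.21 RPKM, against 162 ± 8.82 RPKM with EtOH, and did not pass (adjusted p = 0.859). The part of these cell markers in the uroplakin values was not tested.

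Summed levels of 7 fibroblast genes were 5.76 to 6.94 RPKM with DZNep, against 2.61 to 3.41 RPKM with DMSO. Nearly all of this was DCN, a secreted proteoglycan (6.11 ± 0.699 RPKM with DZNep and 2.77 ± 0.477 RPKM with DMSO), while COL1A1 stood at 0.0363 RPKM with DZNep and 0.0904 RPKM with DMSO, and COL1A2 and COL3A1 were listed at 0. Summed levels of 5 smooth muscle genes were 2.68 to 3.12 RPKM with DZNep, against 0.596 to 1.04 RPKM with DMSO, mostly ACTA2, an actin of contractile cells (2.62 ± 0.187 RPKM with DZNep and 0.692 ± 0.253 RPKM with DMSO), and DES was listed at 0. With Tamoxifen they were 2.53 and 3.90 RPKM, against 2.78 and 2.84 RPKM with EtOH, for fibroblast genes and 0.375 and 0.483 RPKM, against 0.709 and 1.19 RPKM with EtOH, for smooth muscle genes. Of 8 markers of mesothelium, a known site of UPK3B, 3 passed the filter. MSLN rose with DZNep (202 ± 6.82 RPKM, against 144 ± 2.22 RPKM with DMSO; log2 change 0.48, limma adjusted p = 5.45e-04), EFEMP1 and BNC1 did not pass (adjusted p = 0.0970 and 0.473), and CALB2 was listed at 0 in all libraries. The summed level of the 8 was 237 to 254 RPKM with DZNep, against 181 to 187 RPKM with DMSO. It was 188 to 190.3 RPKM with Tamoxifen, against 188 RPKM in both EtOH libraries. Nearly all of it was MSLN and EFEMP1. WT1, LRRN4, GPM6A and PKHD1L1 had group means of at most 0.0194 RPKM. Immune sums, nearly all CD68, were 16.2 to 18.1 RPKM with DZNep, against 13.6 to 16.9 RPKM with DMSO, and 12.4 and 14.4 RPKM with Tamoxifen, against 11.6 and 14.3 RPKM with EtOH. Of 8 seminal vesicle genes 7 were listed at 0, and endothelial sums stayed at or under 0.464 RPKM. The part of these markers in the uroplakin values was not tested either.

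Among all 10994 genes with at least 1 RPKM on average in both tables, those whose pattern over the 10 libraries was most like that of each uroplakin were picked by Pearson's r of log2(RPKM + 1) after removing the mean of each table. These r describe libraries that share treatments and tables, and carry no test. For UPK3A they were DENND4A, CXCL3 and NDRG3 (r = 0.98 each). CXCL3, a neutrophil chemokine, stood at 34.4 ± 0.357 RPKM with DZNep and 13.6 ± 0.351 RPKM with DMSO, and at 11.4 ± 0.688 RPKM with Tamoxifen and 15.4 ± 1.04 RPKM with EtOH. For UPK1B they were A530054K11RIK, ATG4C and SLC39A10 (r = 0.97 each). For UPK1A they were ANGEL1 (0.97), MYPOP (0.96) and SHISA5 (0.95), and for UPK2 FTSJ2 (0.96), PSMD5 (0.94) and PRPSAP1 (0.92).

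Among the uroplakins themselves, the partners UPK3A and UPK1B had the highest r over the 10 libraries, at 0.86, although UPK1B moved over a much narrower range. The partners UPK1A and UPK2 had an r of 0.20, and the tetraspanins UPK1A and UPK1B one of 0.12. UPK3A had an r of 0.47 with UPK1A and of 0.48 with UPK2. These r carry no test either, and genes outside the family, such as DENND4A, had an r of 0.98 with UPK3A.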

How the data were processed

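RNA-seq was run on 10 organoid libraries. Per the labels' protocols, a TRIzol extract of total RNA went into stranded TruSeq mRNA libraries. The submitters' processing notes name bcl2fastq 2.18, STAR, Cufflinks and build mm9, the aligner and Cufflinks without a version. The authors deposited 2 tables of log2 values, 1 per experiment, whose floor of 0 fits log2(RPKM + 1). Not given in the sources used here are the handling of strand and of multiple alignments and whether both tables were scaled together, so levels were tested only within a table. The table of the genetic experiment held 27 symbols turned into dates, which were left out.

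Tests covered genes that averaged 1 RPKM or more in a table and were made with limma 3.58.1 in R 4.3.3 (moderated two-sided test with a mean trend, Benjamini-Hochberg adjustment over all genes tested, threshold 0.05), separately by experiment, leaving 4 residual degrees of freedom for DZNep and 2 for Tamoxifen. The difference of effects was a contrast of 4 group means over all 10 libraries. A member under the filter is described by its values. The procedure was tested on simulated data. Ratios of partners had exact permutation tests over libraries (scipy 1.17.1). Whole reads were recovered from the spacing of low values and served as a measure of depth. For UPK3B they also gave the Poisson intervals of summed reads, and no test was run on them.

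Members and gene lists were chosen with earlier results of these data known. Named genes were the 5 uroplakins, EZH2, up to 3 members of each list (those of smallest p among the called ones, or all of a list of up to 10), and for each uroplakin above 1 RPKM the 3 genes of highest r. FURIN, RAB27B, RAB11A and KRT7 come from lists that may be given in full, and UPK3BL is the only member of its list in the tables. PPARG and the cell markers beyond the called ones are named after their values were seen. Each result was recomputed with quantile or trimmed mean scaling, a filter of 5 RPKM or none, a pseudocount of 0.1, robust variances, no trend, a joint fit, the replicate number as a block, and without each library. Some prostate luminal markers are not reported here, so no count or sum over that list is given.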

Additional observations from a re-analysis of the deposited data

Results flagged for a closer look

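The effects of DZNep and Tamoxifen on UPK3A differed in a test of the difference itself (limma contrast over all 10 libraries, 2.06 on the log2 scale, adjusted p = 8.37e-05). All 3 DZNep libraries lay above all 3 DMSO libraries and both Tamoxifen libraries below both EtOH libraries. Groups did not overlap for 45.5% of all genes tested with DZNep and for 59.9% with Tamoxifen. The effects on UPK1B differed by the same test and in the same direction, by 0.37 (adjusted p = 0.0112).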

How the results depend on the processing

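UPK3A kept its DZNep call and its difference of effects under all 15 and all 18 alternatives, with values of 1.32 to 1.40 and of 1.85 to 2.26 when each library was left out. With Tamoxifen UPK3A ranged from -0.89 to -0.48 over such fits, and it passed with a replicate block (-0.69, adjusted p = 0.00617), in the joint fit (-0.69, 0.0117) and without EtOH 1, out of 13 alternatives (adjusted p 0.00617 to 0.323). Whether the replicate numbers pair the samples is not known. Same-number correlations of residuals were small (0.0591, 0.0590, -0.0675 and 0.0400). With 2 or 3 libraries a group they cannot exclude pairing, since residuals within a group depend on each other. The block is given only here, as an alternative. UPK1B with DZNep did not pass with the block (0.17, adjusted p = 0.110) or after quantile normalization (0.14), and ranged from 0.14 to 0.19 on leaving out a library. Its difference of effects was 0.37 with the block (adjusted p = 0.0525) and 0.31 to 0.42 on leaving out a library. UPK1A with DZNep did not pass with no filter (0.43, adjusted p = 0.0586) and ranged from 0.37 to 0.55 on leaving out a library. UPK2 with DZNep ranged from 0.11 to 0.30. The UPK1A difference of effects ranged from 0.017 to 0.45. The EZH2 call with DZNep was lost with the block (adjusted p = 0.0588). Signs turned on leaving out a library for UPK1A with Tamoxifen (-0.016 to 0.42, negative without EtOH 2), UPK2 with Tamoxifen (-0.12 to 0.27, negative without EtOH 1), the UPK2 difference of effects (-0.085 to 0.30, negative without EtOH 2) and EZH2 with Tamoxifen (-0.058 to 0.21, negative without EtOH 1). UPK3B had log2 differences of 0.42, -0.077 and 0.50 with a pseudocount of 0.1 (DZNep, Tamoxifen and difference of effects), against 0.05, -0.01 and 0.06 with a pseudocount of 1, with UPK3B levels of 0 to 0.0781 RPKM. Of all genes, 3088 were called with DZNep, 1610 with the block and 1522 to 3359 on leaving out a library. With Tamoxifen 230 were called, 1 with no filter, 392 with trimmed mean scaling, 646 with robust variances, 878 with the block, 1028 in the joint fit and 37 to 977 on leaving out a library. For the difference of effects 2190 were called, 1226 with the block and 924 to 2326 on leaving out a library. UPK2 gave no value with a filter of 5 RPKM. The cause of these shifts was not tested. Depth limits UPK3B, at 0 to 4 reads per library, and 2 libraries a group limit every Tamoxifen result.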
